A study of Homo sapiens with 24 samples.

Results

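The comparison described here is the knockdown of RPRD1B alone against a control siRNA in HEK293T, an established line from human embryonic kidney. It was taken from the sample titles and the knockdown label: 2 samples labelled RPRD1B_KD were set against 2 samples labelled as the control, 4 of the 24 samples of the series, and samples were paired by the replicate number in their titles. All 4 carried an siRNA for 48 h before RNA was taken, so both groups share the transfection and differ in what the siRNA targets. Counts came from a 3′ end library kit (QuantSeq, REV version), in which reads gather at the polyadenylated end of a transcript. The labels give neither the siRNA sequences nor their number per gene. Nothing says that replicates 1 and 2 were separate cultures, so p-values measure a spread that may be technical. That spread was pooled over 14 HEK293T samples in 7 groups. A shift shared by samples of the same replicate number was first taken out. A second, sample-independent view of the same target came from 2 samples labelled RPRD1B_RPRD2_KD set against 2 labelled RPRD2_KD, which carry siRNA against RPRD2 in both groups.

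RPRD1B, also known as CREPT, belongs to a small family with RPRD1A and RPRD2 that carries a CTD-interacting domain. This domain binds the repeated tail of the largest subunit of RNA polymerase II when the tail is phosphorylated, and the family is known to bring tail phosphatases such as RPAP2 to the polymerase. RPRD1B has also been described as a partner of beta-catenin and as an activator of cyclin D1 and other growth genes in tumour cells.

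The 4 libraries held 1833696 and 2209270 counts in genes for control siRNA 1 and 2, and 2688299 and 2889895 for RPRD1B_KD 1 and 2, so the knockdown libraries were the deeper ones. A detection floor of 3 counts lay between 1.04 and 1.64 CPM, where CPM are counts scaled to the library size (with TMM factors for gene values), and this floor and all counting intervals cover counting error only, since the reads carry no molecular identifiers. Of 12 genes known from HEK293 lines, 10 passed the filter on low counts, PAX8 was at 0 in all 4 samples, and their summed levels were 256 and 334 CPM with control siRNA and 269 and 305 CPM in RPRD1B_KD. Of 20 markers of other cell types, 13 were at 0 in all 4 samples, and the sums were 22.8 and 29.9 CPM with control siRNA against 22.04 and 25.4 CPM. In bulk RNA, fewer cells of a kind and less RNA per cell cannot be told apart.

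RPRD1B itself was measured at 28.6 and 28.3 CPM in control siRNA 1 and 2 and at 10.5 and 6.21 CPM in RPRD1B_KD 1 and 2. Both knockdown samples lay below both controls, and the mean left was 29.4% of control. The log2 fold change was -1.81 (SE 0.28, edgeR quasi-likelihood test, adjusted p = 1.48e-04), where adjusted p is the Benjamini-Hochberg value over all 11739 genes tested and a gene was called under 0.05. RPRD1B lies at chr20:38033546-38127780 on the plus strand (GRCh38, GENCODE 29). Its annotation overlaps that of TGM2. Of the 75 genes called in this comparison, 50 have a span that overlaps an annotated neighbour, GIPC1 (with the pseudogene SNRPGP15) among them. The share over all genes tested was not counted. Since the strand setting of the counting is not given in the sources used here, reads in such overlaps are uncertain. The called genes described here with no annotated overlap are RPRD1A, SERPINH1, NAT10, GPX4, BRSK2, FAM220A, ZNF703, ZNF787, FBL, QTRT1, SF3A3, STIP1, XRCC6, AC010969.2, JUN, PERP, BSDC1 and AP001324.1.

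The related RPRD1A messenger RNA was also lower in RPRD1B_KD. It stood at 157 and 166 CPM with control siRNA and at 86.4 and 102 CPM in RPRD1B_KD, with no overlap (log2 fold change -0.77, SE 0.13, edgeR adjusted p = 6.25e-04). The third family member, RPRD2, read 99.1 and 102 CPM against 104 and 98.6 CPM, and the 2 groups overlapped (log2 fold change 0.01, SE 0.13, edgeR adjusted p = 0.994). For comparison, RPRD1A was at 75.2 and 100.5 CPM in the RPRD2_KD samples, which received no siRNA labelled against it. In RPRD1A_KD, where it is the labelled target, RPRD1A was at 16.9 and 23.4 CPM, well under the level in RPRD1B_KD. With all 16 HEK293T samples in the fit, the RPRD1A change was not called (adjusted p = 0.471).

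The largest change with a small error was in GIPC1, which encodes a PDZ-domain adaptor that links membrane receptors to the myosin VI motor. GIPC1 stood at 206 and 178 CPM with control siRNA and at 56.0 and 47.2 CPM in RPRD1B_KD. This left 26.9% of the control mean (log2 fold change -1.89, SE 0.13, edgeR adjusted p = 4.11e-17), a share close to that left of RPRD1B. GIPC1 is at chr19:14477760-14496149 on the minus strand (GRCh38, GENCODE 29). Of 22 tested genes in a list of GIPC family members and binding partners, only GIPC1 was called, against 0.639% of all genes tested. At that share a list of this size would rarely hold a call, so this is no result about the partners. At an unadjusted p under 0.05 in edgeR, 3 were higher and 2 lower, against 4.94% and 6.04% of all genes. The median log2 fold change of the list was 0.02, against 0.00109 over all genes tested.

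The 250 bases upstream of the RefSeq start of GIPC1 and of RPRD1A (RefSeq, GRCh38.p14) are shown. GIPC1 was called lower in RPRD1B_KD against control siRNA and in RPRD1B_RPRD2_KD against RPRD2_KD. RPRD1A was added by choice, and it was called lower in the first of these only. RPRD1B and SERPINH1, also called lower in both, are not shown. The RPRD1B stretch held 0 GC boxes and 0 CCAAT boxes, and 200 of its bases lie inside the GENCODE gene. SERPINH1 had no single promoter entry. Whether GIPC1 and RPRD1A share a regulation was not tested. GIPC1 covers chr19:14496128-14496377 and RPRD1A covers chr18:36067560-36067809, each read 5′ to 3′ on the gene's own minus strand. Capitals mark the GC box (GGGCGG) and the CCAAT box (CCAAT), each searched on both strands.
GIPC1: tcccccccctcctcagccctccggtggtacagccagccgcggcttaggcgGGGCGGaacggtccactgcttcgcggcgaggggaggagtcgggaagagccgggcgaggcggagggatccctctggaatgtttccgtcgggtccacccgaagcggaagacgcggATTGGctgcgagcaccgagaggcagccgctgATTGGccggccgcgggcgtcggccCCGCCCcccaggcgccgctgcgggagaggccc
RPRD1A: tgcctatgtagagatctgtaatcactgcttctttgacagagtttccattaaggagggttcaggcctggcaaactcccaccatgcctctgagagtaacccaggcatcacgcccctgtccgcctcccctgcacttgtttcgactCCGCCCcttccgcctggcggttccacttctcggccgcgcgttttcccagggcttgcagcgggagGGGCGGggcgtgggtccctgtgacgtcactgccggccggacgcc
The GIPC1 stretch held 2 GC boxes and 2 CCAAT boxes at 74.0% GC, and the RPRD1A stretch held 2 GC boxes and no CCAAT box at 62.4% GC. A GC box was present in 70.17% of the 8769 promoters of tested genes that had an entry and in 71.43% of the 49 promoters of genes called lower. A CCAAT box was present in 35.88% and 28.57% of these. A match describes the letters and says nothing of a bound factor.

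**Figure D1:**
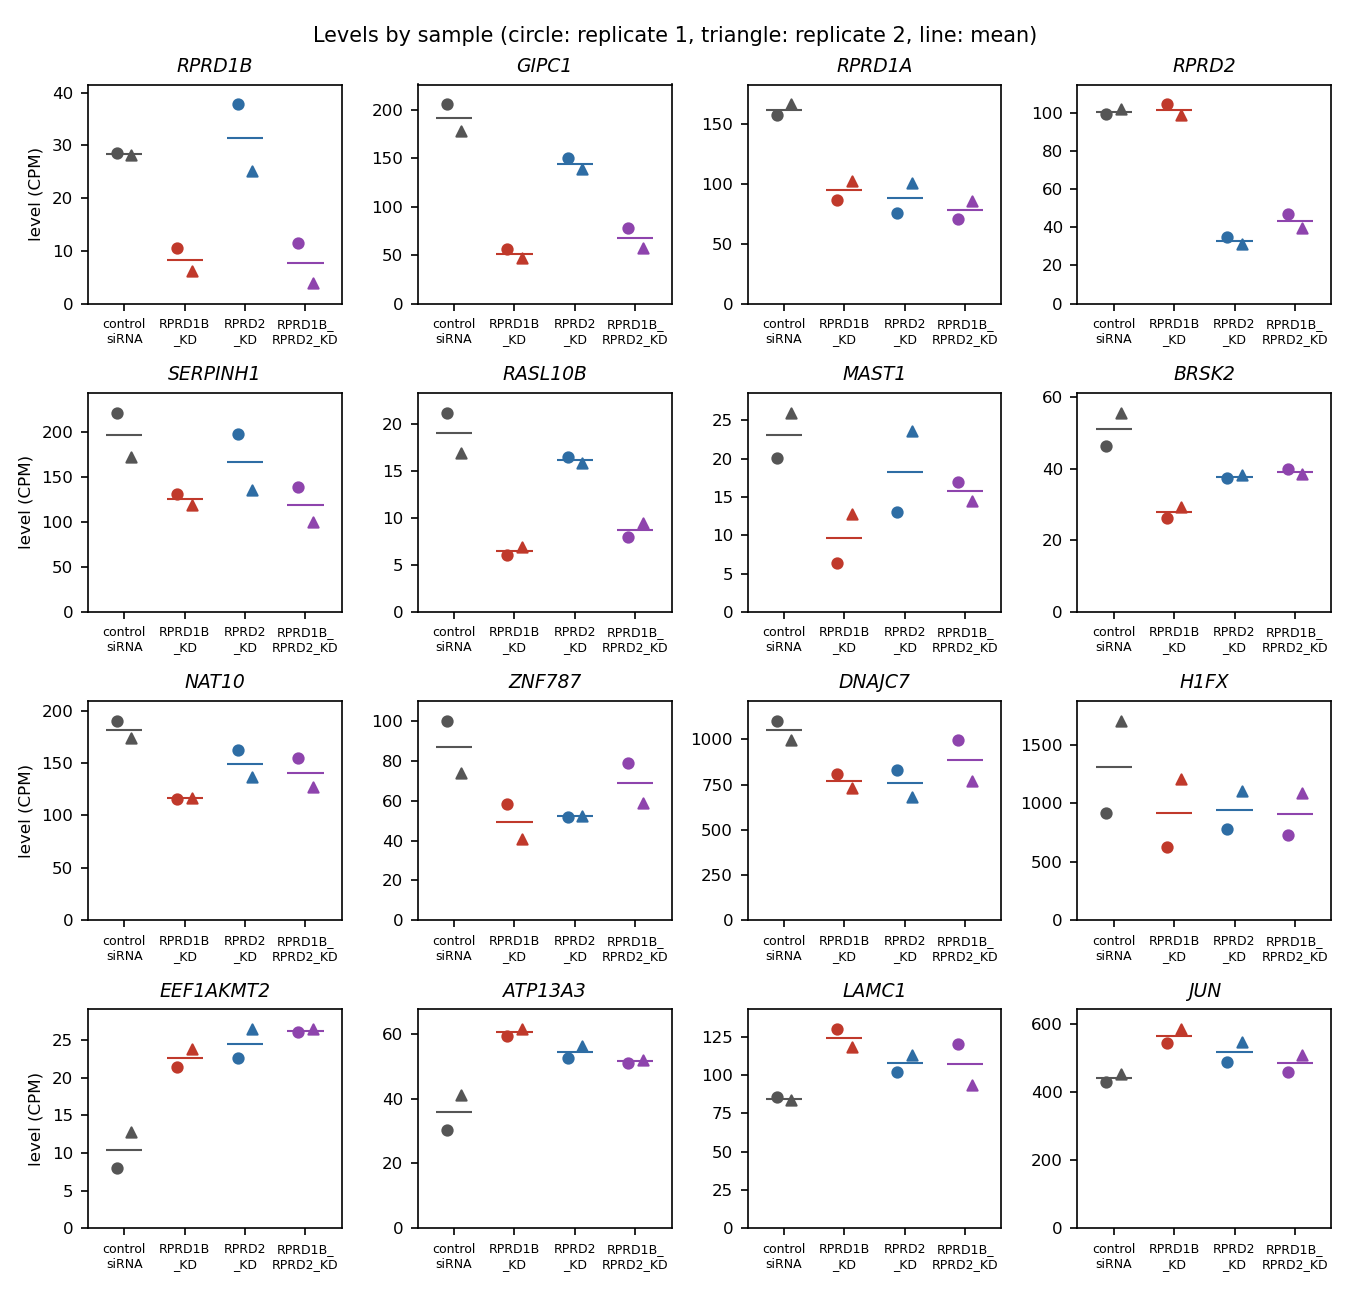
Level in CPM (each axis starts at 0) of 16 genes in the 2 samples of control siRNA, RPRD1B_KD, RPRD2_KD and RPRD1B_RPRD2_KD; circles are replicate 1, triangles replicate 2 and lines group means. RPRD1B, GIPC1, SERPINH1 and RASL10B are lower in RPRD1B_KD than with control siRNA and lower in RPRD1B_RPRD2_KD than in RPRD2_KD, while EEF1AKMT2 is lowest in the 2 control samples.

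Across the transcriptome, 75 of 11739 genes were called between RPRD1B_KD and control siRNA, which is 0.639% of those tested. Of these, 64 were lower (0.545%) and 11 were higher (0.0937%). All 75 moved the same way in both pairs, which adds no support, since a steady difference in these pairs is what the test selects. In 55 of the 64 and 10 of the 11 the samples of the groups did not overlap. Of all tested genes, 14.1% met that condition as lower and 14.4% as higher. The called falls were mostly small: log2 fold changes ran from -1.91 to -0.30, and 7 genes fell by 1 or more. The called rises ran from 0.32 to 1.09. Most of these genes also lay on that side of the controls in the other single knockdowns, which carry no siRNA labelled against RPRD1B. Over the 64 genes called lower, the median difference from control on the log2(mean CPM + 1) scale was -0.51 in RPRD1B_KD, -0.40 in RPRD2_KD and -0.28 in RPRD1A_KD, and the group mean was below the control mean for 63 of the 64 in each of RPRD2_KD and RPRD1A_KD. Over the 11 called higher it was 0.55, 0.36 and 0.18. All 3 differences use the same 2 control samples, so the genes called here were not shown to be particular to RPRD1B siRNA, and the part of the 2 control libraries in these calls was not tested. The count rests on the model. The 14-sample fit with the replicate number as a block leaves out the group RPRD1A_RPRD2_KD. Its 2 libraries had the lowest weights in limma voom (0.328 and 0.355, against 0.973 to 1.32 in the other 14). With all 16 HEK293T samples only GIPC1 and RPRD1B were called. All 75 kept their direction and an unadjusted edgeR p under 0.05 there, but they were chosen for a difference in the same samples. Without the replicate block 1 gene was called, GIPC1, and when RPRD1B_KD replicate 1 or 2 was left out, 3 and 6 genes were; without control 1 or 2, 30 and 36 genes were.

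**Figure D2:**
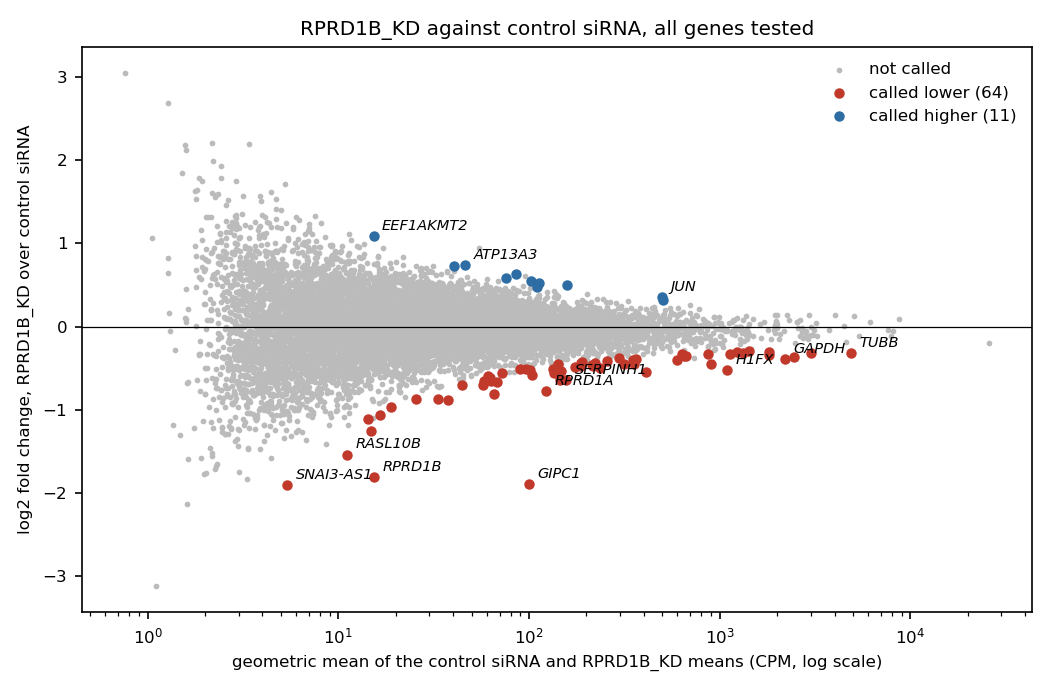
Log2 fold change (RPRD1B_KD over control siRNA) against the geometric mean of the group means in CPM (log axis) for all 11739 genes tested; red points are the 64 genes called lower, blue points the 11 called higher and grey points the rest. GIPC1, at -1.89, stands apart from genes of a similar level, while 57 of the 64 genes called lower have a log2 fold change above -1.

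Beside RPRD1B and GIPC1, the largest called falls were in single genes of modest level. RASL10B, a small GTPase of the Ras family, stood at 21.2 and 16.9 CPM with control siRNA and 6.01 and 6.90 CPM in RPRD1B_KD (log2 fold change -1.54, SE 0.32, edgeR adjusted p = 0.00772). MAST1, a microtubule-associated kinase, went from 20.1 and 26.0 to 6.38 and 12.8 CPM (-1.26, adjusted p = 0.0186). In both genes the 2 knockdown samples were below the 2 controls. DIRAS1, another Ras-like GTPase, went from 24.1 and 24.2 to 10.1 and 12.8 CPM (-1.06, adjusted p = 0.0327). BRSK2, a kinase best known from neuronal polarity, went from 46.4 and 55.6 to 26.3 and 29.3 CPM (-0.88, adjusted p = 0.00631). The last of this set, GNG4, a G-protein gamma subunit, went from 32.1 and 57.5 to 17.3 and 31.7 CPM (-0.87, adjusted p = 0.023), with its 2 controls far apart. The antisense genes SNAI3-AS1 (-1.91, adjusted p = 0.0461) and LIPE-AS1 (-0.97, adjusted p = 0.0475) were also called lower, but they overlap genes on the other strand, so their reads are uncertain. SNAI3-AS1 was low throughout, at 14.9 and 6.38 CPM with control siRNA and 3.76 and 1.72 CPM in the knockdown. FAM220A fell by 0.88 on the log2 scale, from 35.5 and 34.2 to 19.2 and 18.6 CPM, and the long noncoding RNA gene AC010969.2 went from 24.6 and 17.8 to 10.9 and 8.62 CPM (-1.11, adjusted p = 0.0439).

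Several further called genes fall outside the rule used for naming and were chosen after their values were seen, for their small p-values or their roles. They are SERPINH1, H1FX, NAT10, DNAJC7, ALYREF, GPX4, MAGOH, ZNF703, PES1, FBL, QTRT1 and AKR7A2. SERPINH1, the collagen chaperone HSP47, stood at 222 and 172 CPM with control siRNA and 131 and 119 CPM in RPRD1B_KD (log2 fold change -0.64, SE 0.11, edgeR adjusted p = 5.31e-04). H1FX, a linker histone whose transcript is polyadenylated, read 916 and 1703 CPM against 625 and 1203 CPM (-0.52, adjusted p = 2.00e-04). Here the groups overlapped, because the second sample of each group was the higher one, and only the difference within pairs was steady. NAT10, the enzyme that acetylates cytidine in RNA, went from 190.2 and 174 to 116 and 117 CPM (-0.64, adjusted p = 6.25e-04). DNAJC7, a co-chaperone of HSP70 and HSP90, went from 1102 and 998 to 811 and 730.3 CPM (-0.45, adjusted p = 8.63e-04). ALYREF, an mRNA export adaptor, went from 425 and 567 to 305 and 376 CPM (-0.54, adjusted p = 0.00102). None of these 3 genes overlapped between groups. GPX4, which protects membranes from lipid peroxidation, was at 244 and 317 CPM and 175 and 223 CPM (-0.49, adjusted p = 0.0042), and MAGOH, of the exon junction complex, at 439 and 389 CPM and 314 and 292 CPM (-0.45, adjusted p = 0.00535).

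The zinc-finger genes ZNF787 and ZNF703 were among those called lower, without overlap between the groups. ZNF787 went from 100.3 and 73.9 CPM to 58.2 and 41.0 CPM (-0.81, edgeR adjusted p = 0.00146), and the abundant repressor ZNF703 from 2891 and 2667 to 2141 and 2162 CPM (-0.37, adjusted p = 0.0132). Over the 307 tested genes with a ZNF name, the median was -0.08 and 22 had an unadjusted p under 0.05 as lower against 6 as higher. Over all 11739 genes tested, 709 were lower (6.04%) and 580 higher (4.94%). The share of ZNF-named genes as lower was thus close to that of all genes, and their share as higher was smaller. In RPRD1B_RPRD2_KD against RPRD2_KD the median of the ZNF-named genes was -0.02.

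Fewer genes rose, and EEF1AKMT2 had the largest of the 11 called rises. EEF1AKMT2, a methyltransferase acting on an elongation factor, stood at 8.02 and 12.8 CPM with control siRNA and 21.4 and 23.8 CPM in RPRD1B_KD (log2 fold change 1.09, SE 0.27, edgeR adjusted p = 0.0327). The RPRD2_KD samples, which carry no siRNA labelled against RPRD1B, were at 22.6 and 26.4 CPM, so the 2 controls were the low samples for this gene. ATP13A3, a polyamine transporter, went from 30.4 and 41.0 to 59.3 and 61.4 CPM (0.74, adjusted p = 0.0246), and its RPRD2_KD samples were at 52.6 and 56.1 CPM. LAMC1, the laminin gamma 1 chain, went from 85.4 and 83.9 to 129.9 and 119 CPM (0.55, adjusted p = 0.0248). Its RPRD2_KD samples, at 102 and 113 CPM, lay between the controls and the RPRD1B_KD samples.

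JUN, the AP-1 transcription factor, rose from 430.3 and 453 CPM to 544 and 584 CPM (0.35, SE 0.09, edgeR adjusted p = 0.03). PERP, a desmosomal p53 effector, rose from 98.0 and 87.6 to 137 and 121 CPM (0.48, adjusted p = 0.0379). CMTM6, which keeps PD-L1 at the cell surface, rose from 474 and 428 to 586 and 538 CPM (0.32, adjusted p = 0.0475). In each of the 3 genes the RPRD1B_KD samples were above both controls. So were the RPRD2_KD samples, at 487 and 545 CPM for JUN, 136 and 111 CPM for PERP and 582 and 502 CPM for CMTM6. The other named rises were TMEM19 (0.73), BSDC1 (0.62), TMEM9B (0.53) and the processed pseudogene AP001324.1 (0.50), with edgeR adjusted p of 0.0334, 0.0246, 0.024 and 0.03. Reads of a processed pseudogene may belong to its parent gene, so its count is uncertain.

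Pathway lists were then read for how many members were called and where their median lay. Over all genes tested, 0.545% were called lower and 0.0937% higher, and 5845 of 11739 had a fold change below 0. At an unadjusted edgeR p under 0.05, 6.04% were lower and 4.94% higher. These shares varied with level and GC content. Of the 2935 tested genes of highest control level, 366 were lower and 131 higher at that p. Of the 2887 of highest GC content, 306 were lower and 76 higher. The lists were not matched for level or GC content. Among genes of the RNA polymerase II machinery, POLR2E, a subunit shared by all 3 nuclear polymerases, was the only one of 12 tested subunits called, at 1413 and 1123 CPM with control siRNA and 1058 and 942 CPM in RPRD1B_KD (-0.34, edgeR adjusted p = 0.0248). The largest subunit POLR2A, whose tail RPRD1B binds, read 657 and 495 against 687 and 519 CPM (0.07, adjusted p = 0.835). Among 6 genes with a CTD-interacting domain, RPRD1A and RPRD1B were called and SCAF4, a termination factor, was not, at 27.5 and 27.8 against 26.7 and 12.8 CPM (adjusted p = 0.395). None of 14 CTD phosphatase and RPAP genes was called by edgeR, and 2 had an unadjusted p under 0.05, both lower. They were SSU72, a tail phosphatase, at 201 and 202 against 167 and 166 CPM (-0.27, adjusted p = 0.25), and CTDP1 (-0.38, adjusted p = 0.329). None of 35 CTD kinases and elongation factors was called (1 higher and 2 lower at an unadjusted p under 0.05), and none of 14 Integrator subunits (0 higher and 2 lower).

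Of 29 cleavage, polyadenylation and termination factors, 1 was called lower. This was SYMPK, the symplekin scaffold, at 281 and 156 CPM and 194 and 123 CPM (-0.44, edgeR adjusted p = 0.0248), whose replicates differed more from each other than the groups did. In this list 22 of the 29 genes had a fold change below 0, against 5845 of 11739 over all genes, and the median was -0.12. The cytoplasmic poly(A)-binding protein gene PABPC1 missed the threshold, at 1313 and 1299.7 against 1007 and 1056 CPM (-0.34, adjusted p = 0.0518), and the poly(A) polymerase gene PAPOLA read 117 and 153 against 154 and 178 CPM (0.30, adjusted p = 0.25). Among 37 core splicing factors, SF3A3 was called lower, at 252 and 256 against 192 and 174 CPM (-0.47, adjusted p = 0.00699). Of the 37, 10 had an unadjusted edgeR p under 0.05 as lower and 0 as higher, against 6.04% and 4.94% of all genes, with a median of -0.09. U2AF2, which binds the polypyrimidine tract, was among these 10 at 235 and 226 against 157 and 192 CPM (adjusted p = 0.0746). In RPRD1B_RPRD2_KD against RPRD2_KD, 3 of the 37 were lower and 4 higher at an unadjusted edgeR p under 0.05.

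The cyclin D1 and beta-catenin genes were not called. CCND1, the cyclin D1 gene, chosen after its values were seen for that link, read 62.5 and 57.5 CPM with control siRNA and 57.5 and 59.3 CPM in RPRD1B_KD (log2 fold change -0.03, SE 0.16, edgeR adjusted p = 0.97). The beta-catenin gene CTNNB1 read 354 and 369 against 334 and 370.3 CPM (-0.04, adjusted p = 0.931). In both the groups overlapped. None of 30 Wnt pathway components was called, with 2 higher and 2 lower at an unadjusted p under 0.05. CSNK1A1, a kinase of the beta-catenin destruction complex, came nearest, at 67.0 and 47.9 against 80.7 and 85.2 CPM (0.55, adjusted p = 0.0616). Of 18 tested Wnt target genes, JUN alone was called, and the median was -0.03. None of 23 G1 cyclins, CDKs and inhibitors was called (1 higher and 1 lower at an unadjusted p under 0.05), nor any of 36 mitosis genes (1 higher and 4 lower), of which AURKB read 1509.8 and 1242 against 1282 and 1103 CPM (-0.20, adjusted p = 0.233).

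Of 38 tested DNA replication genes, 30 had a fold change below 0, against 5845 of 11739 over all genes, and the median was -0.14 on the log2 scale. POLD1, the catalytic subunit of DNA polymerase delta, was the one called, at 80.8 and 78.4 CPM with control siRNA and 46.2 and 54.8 CPM in RPRD1B_KD (-0.65, edgeR adjusted p = 0.03). Of these genes, 8 had an unadjusted edgeR p under 0.05 as lower and 2 as higher, against 6.04% and 4.94% of all genes. In RPRD1B_RPRD2_KD against RPRD2_KD, 0 of them were lower and 5 higher at that p, with a median of 0.07. UNG, the uracil glycosylase, read 149.5 and 187 against 110.0 and 143 CPM (-0.41, adjusted p = 0.0621), and the helicase subunit MCM2 read 415 and 589 against 398 and 519 CPM (-0.13, adjusted p = 0.65). Of 27 break repair genes, XRCC6, which encodes Ku70, was called lower, at 2010.0 and 2006 against 1567 and 1691 CPM (-0.30, adjusted p = 0.03). Its partner XRCC5 (Ku80) read 381 and 415 against 401 and 426 CPM (0.06, adjusted p = 0.878), and H2AFX read 140.4 and 152 against 96.5 and 132 CPM (-0.36, adjusted p = 0.25). Only 13 of 85 replication-dependent histone genes passed the filter, and none was called, with 2 higher and 1 lower at an unadjusted p under 0.05. Their transcripts lack a poly(A) tail as a rule, and HIST1H2AC was near the floor, at 2.86 and 1.82 against 6.76 and 6.55 CPM.

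Of 79 tested ribosomal protein genes, 2 were called lower, 41 had a fold change above 0 and 38 below 0, and the median was 0.00. RPS3 read 2909 and 3822 CPM with control siRNA and 2214 and 3204 CPM in RPRD1B_KD (-0.32, edgeR adjusted p = 0.0248), and RPL32 read 1277 and 1463 against 996 and 1223 CPM (-0.31, adjusted p = 0.03). Both genes have many processed copies in the genome, which makes their counts uncertain. Outside the lists, FTSJ3, a ribosomal RNA processing factor named by the rule for large falls, went from 90.5 and 80.7 to 52.2 and 54.8 CPM (-0.67, adjusted p = 0.0132), and the methyltransferase FBL, chosen after its values were seen, from 1613 and 1561 to 1254 and 1325 CPM (-0.30, adjusted p = 0.0475). PES1, needed for the large ribosomal subunit and chosen in the same way, had a log2 fold change of -0.46 (adjusted p = 0.0248). One of 20 tested small nucleolar RNA host genes was called, SNHG9, at 138 and 182 against 103 and 120.0 CPM (-0.51, adjusted p = 0.0132).

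SHMT2, the mitochondrial serine hydroxymethyltransferase, went from 161 and 192 to 118 and 127 CPM (-0.53, edgeR adjusted p = 0.00699), and SLC7A5, the large neutral amino acid transporter, from 666 and 715 to 499 and 543 CPM (-0.41, adjusted p = 0.0132). These were the 2 called of 35 tested ATF4 targets, whose median was -0.01. Of 19 glycolysis genes, GAPDH was called lower, at 2754 and 2302 against 1982 and 1851 CPM (-0.40, adjusted p = 0.0122), with the same caution on gene copies. Of 19 heat shock genes, STIP1, a co-chaperone that joins HSP70 and HSP90, was called lower, at 770.1 and 701 against 583 and 563 CPM (-0.36, adjusted p = 0.0186). The inducible HSPA1B read 814 and 855 against 647 and 641 CPM (-0.38, adjusted p = 0.11).

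None of 25 tested p53 targets was called, with 1 higher and 2 lower at an unadjusted p under 0.05: BAX read 59.0 and 52.9 against 40.2 and 33.1 CPM (-0.61, edgeR adjusted p = 0.0808) and BBC3 read 48.7 and 47.0 against 64.6 and 64.8 CPM (0.44, adjusted p = 0.228). None of 13 tested interferon response genes was called, and the 1 with an unadjusted p under 0.05 was BST2, at 161 and 145 against 99.9 and 124 CPM (-0.44, adjusted p = 0.0699). None of 15 RNA interference genes was called, with 3 higher and 1 lower at an unadjusted p under 0.05, among them AGO2 at 93.4 and 83.5 against 106 and 112 CPM (adjusted p = 0.313). Of 19 tested immediate early genes, JUN was the one called. In the other lists, which were endoplasmic reticulum chaperones (22 tested), cholesterol synthesis (26), hypoxia targets (26), BMP and TGF-beta response (20), respiratory chain subunits (75), ubiquitin and autophagy (24) and apoptosis regulators (25), no gene was called by edgeR, and their medians lay between -0.01 and 0.08. At an unadjusted p under 0.05, these lists held 0 to 5 genes as higher or as lower. ID2 and ID3, BMP targets that block basic helix-loop-helix factors, read 79.6 and 93.9 against 126 and 112 CPM and 90.0 and 106 against 125 and 132 CPM, with edgeR adjusted p of 0.105 and 0.151.

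**Figure D3:**
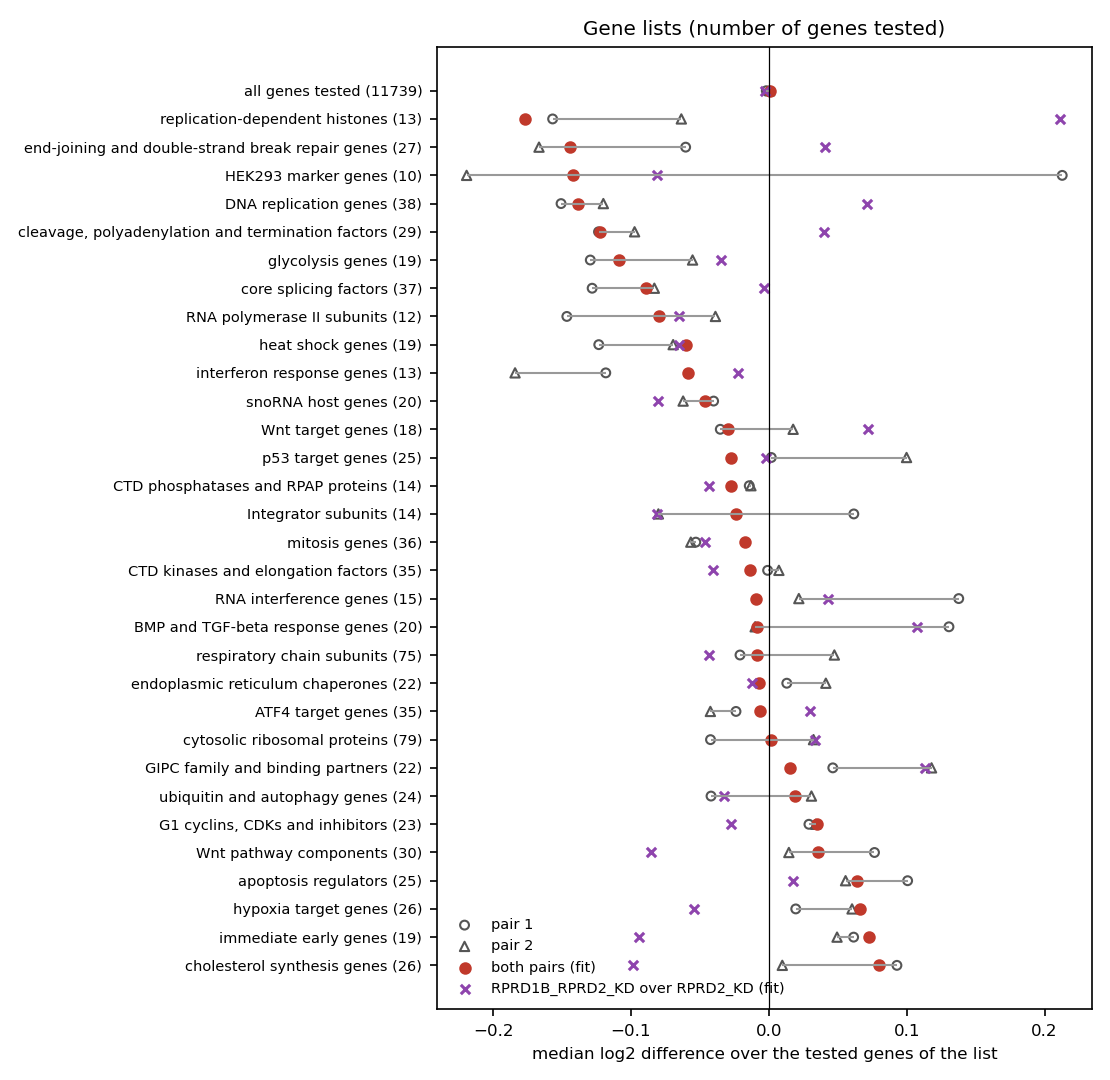
Median log2 difference over the tested genes of each list with 10 or more tested genes (number in brackets): red points are the fit of RPRD1B_KD over control siRNA, open circles and triangles its pairs 1 and 2 on the log2(CPM + 1) scale, and purple crosses RPRD1B_RPRD2_KD over RPRD2_KD. The medians of replication-dependent histone, break repair, DNA replication, polyadenylation, glycolysis and splicing genes lie between -0.18 and -0.09 with both pairs below 0, and the second comparison gave -0.03 to 0.21 for these lists.

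The called falls lay among genes of high level and high GC content. The median control level was 201 CPM for genes called lower, 84.6 CPM for genes called higher and 27.1 CPM for all tested. The median transcript GC content was 57.8% for genes called lower, 46.3% for those called higher and 49.4% over all. When tested genes were cut into 4 equal groups by GC content, then in the group of highest GC content 60.1% had a fold change below 0, the median was -0.07, and 35 of the 64 called falls lay there. Short genes went the same way: the median was -0.04 in the group with the shortest span and 0.05 in that with the longest. Across 11546 genes, which are not independent replicates, Spearman's rho of the log2 fold change with GC content was -0.14. GC content also moved with single libraries, since the rho of a library's deviation from the mean of the 14 with GC content was 0.12 and 0.09 in the controls and -0.08 and 0.02 in RPRD1B_KD. With a GC correction in the blocked fit, 66 genes were called, of which 52 were among the 75, and the part of GC content in the remaining falls was not tested. With the RPRD1B_KD libraries thinned to the depth of their controls, 66 were called and 59 were shared.

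**Figure D4:**
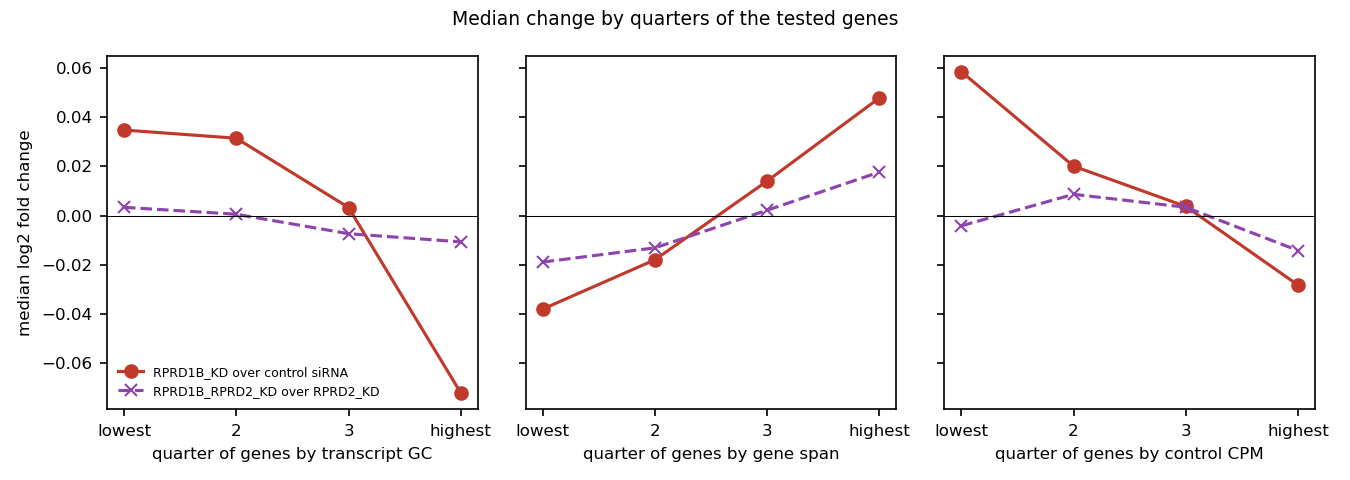
Median log2 fold change in 4 equal groups of the tested genes by transcript GC content, by gene span and by control CPM, lowest group on the left; red is RPRD1B_KD over control siRNA and purple RPRD1B_RPRD2_KD over RPRD2_KD. The red line falls from 0.03 to -0.07 over GC content, while the purple line stays between -0.01 and 0.00. Control CPM is itself part of the red fold change, so that panel is not independent of it.

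The comparison of RPRD1B_RPRD2_KD with RPRD2_KD asks what siRNA against RPRD1B does where RPRD2 is lowered in both groups, and it shares no sample with the first. RPRD2 was at 34.8 and 31.3 CPM in RPRD2_KD and 47.0 and 39.9 CPM in RPRD1B_RPRD2_KD, below the control level in all 4. It was higher in RPRD1B_RPRD2_KD without overlap (log2 fold change 0.40, SE 0.17, edgeR unadjusted p = 0.0228, adjusted p = 0.377). The RPRD2 level was thus not shown to be equal in the 2 groups, and its part in their differences was not tested. This comparison shares the settings of the first. The second comparison also called 75 genes (0.639% of those tested), of which 59 were higher (0.503%) and 16 lower (0.136%). RPRD1B went from 37.8 and 25.2 CPM in RPRD2_KD to 11.6 and 3.99 CPM in RPRD1B_RPRD2_KD (log2 fold change -1.97, SE 0.28, edgeR adjusted p = 1.38e-05). GIPC1 went from 149.9 and 139 CPM to 77.8 and 57.8 CPM (-1.08, SE 0.13, adjusted p = 1.87e-07). SERPINH1 went from 198 and 135 CPM to 139 and 99.7 CPM (-0.47, SE 0.11, adjusted p = 0.0241), where the lower RPRD2_KD sample sat just under the higher double knockdown sample. These 3 genes were the only ones called lower in both comparisons, and none was called higher in both. With all 16 samples in the fit, SERPINH1 was no longer called in the first comparison (adjusted p = 0.471).

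RASL10B had values of 16.5 and 15.9 CPM in RPRD2_KD and 7.96 and 9.47 CPM in RPRD1B_RPRD2_KD. The samples did not overlap, and the log2 fold change was -0.89 with an edgeR adjusted p of 0.212. AKR7A2, an aldehyde reductase called lower in the first comparison (-0.44), read 168 and 151 against 119 and 127 CPM in the second (-0.38, adjusted p = 0.112). RPRD1A read 75.2 and 100.5 against 70.2 and 85.2 CPM (-0.18, adjusted p = 0.729), from a level in RPRD2_KD already below that with control siRNA.

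Most of the other called genes were not called again. Of the 64 called lower in the first comparison, 24 were below 0 and 40 above 0 in the second, and their median changed from -0.51 to 0.15. At an unadjusted edgeR p under 0.05 the second comparison had 6 of the 64 lower and 27 higher. Over all genes these shares were 4.8% lower and 5.43% higher. Among the 27 were POLR2E (log2 fold change 0.27), SYMPK (0.39), POLD1 (0.39), DNAJC7 (0.22) and ALYREF (0.25), none of them called there. The 11 called higher had a median of 0.55 in the first and -0.01 in the second, with 4 above 0. There were 6 genes called in opposite directions: GAPDH, RNU5F-1, QTRT1, FBL, RPS3 and SLC7A5, all lower in the first and higher in the second. GAPDH read 1913 and 1619 CPM in RPRD2_KD and 2813 and 2095 CPM in RPRD1B_RPRD2_KD (0.47, edgeR adjusted p = 0.00113), so its RPRD2_KD and RPRD1B_KD samples were the low ones of the 4 groups. QTRT1, which makes queuosine in transfer RNA, had the same pattern: 173 and 156 CPM with control siRNA, 105 and 122 CPM in RPRD1B_KD, 102 and 78.9 CPM in RPRD2_KD and 149 and 125 CPM in RPRD1B_RPRD2_KD.

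The difference between the backgrounds was itself tested as an interaction, and 141 genes were called (1.2%), 131 with the higher fold change on the RPRD2 background (1.12%) and 10 with the lower (0.0852%). For GIPC1 the fall was smaller on the RPRD2 background by 0.81 on the log2 scale (edgeR adjusted p = 0.00948), and for RPRD1B the difference was -0.16 (adjusted p = 0.936). SERPINH1 differed by 0.17 (adjusted p = 0.75). Without the replicate block the interaction called 0 genes in edgeR, with 514 at an unadjusted p under 0.05. With all 16 samples and the block it also called 0, with 759 at that p, and DESeq2 on the 14 samples called 72.

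**Figure D5:**
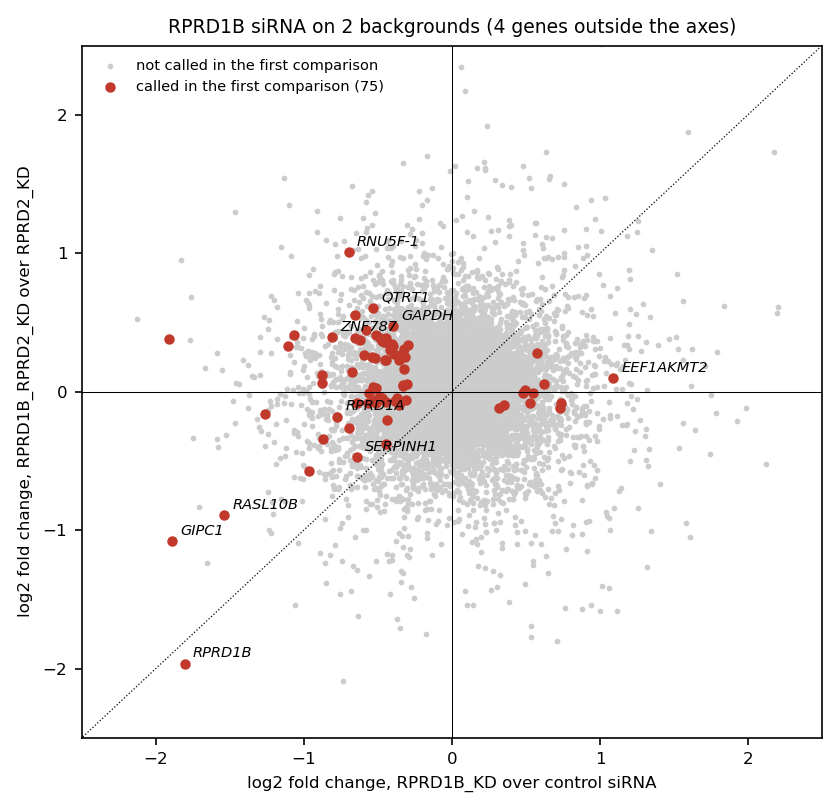
Log2 fold change of each tested gene for RPRD1B_KD over control siRNA (horizontal) and RPRD1B_RPRD2_KD over RPRD2_KD (vertical); red points are the 75 genes called in the first comparison, and the dotted line marks equal values. RPRD1B (-1.81 and -1.97), GIPC1 (-1.89 and -1.08), RASL10B (-1.54 and -0.89) and SERPINH1 (-0.64 and -0.47) lie in the lower left, and most other red points lie near or above 0 on the vertical axis.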

How the data were processed

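HEK293T samples were grouped by their labels, and RPRD1B_KD was compared with control siRNA in a fit of 14 samples in 7 groups. The deposited tables hold whole-number counts per gene name (58138 names). STAR, HTSeq and the GRCh38 build are named per the submitters' processing notes. The annotation, the strand setting and filters are not given in the sources used here. Closing rows for unassigned reads (40.5 to 48.5% of entries in the 14 samples) were left out. The genes tested passed filterByExpr (minimum count 10, minimum total 15). Scaling was by TMM, and groups were compared with edgeR 4.0.16 (R 4.3.3), with limma 3.58.1 and DESeq2 1.42.0 as alternatives. Members, gene lists and the leaving out of RPRD1A_RPRD2_KD were chosen with earlier results of these data known.

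The replicate number was a block, with 6 residual degrees of freedom. Same-numbered samples deviated together in each of 21 group pairs (r from 0.29 to 0.52 over 8818 genes); the pairing rests on this and on the numbers in the titles. Replicates differed by more than sampling noise (chi-square per degree of freedom from 3.52 to 5.92). CPM are counts scaled to TMM library sizes. Named genes were the RPRD family and GIPC1, the up to 14 rises and 14 falls of largest log2 fold change without overlap and at 10 CPM or more, and in each list the called, the lowest-p and the most abundant members. The scripts were tested on simulated data. Coordinates and GC content are from GENCODE 29.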

Additional observations from a re-analysis of the deposited data

Results flagged for a closer look

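The effect of RPRD1B siRNA differed between the control and the RPRD2 siRNA backgrounds for 141 genes by the interaction test in edgeR with 14 samples and the replicate block. In edgeR without the block, or with all 16 samples and the block, 0 genes were called (514 and 759 had an unadjusted p under 0.05), and DESeq2 with the block called 72, of which 71 were among the 141. RPRD2 itself was higher in RPRD1B_RPRD2_KD than in RPRD2_KD, and the part of this in the difference was not tested. The adjusted p-values that follow are those of the 14-sample blocked fit. Among genes named by rule, the difference on the log2 scale (RPRD2 background minus control background) was 0.81 for GIPC1 (adjusted p = 0.00948), which fell on both backgrounds. It was 1.20 for ZNF787 (adjusted p = 3.94e-04), at 52.1 and 52.5 CPM in RPRD2_KD and 78.9 and 58.8 CPM in RPRD1B_RPRD2_KD. For DIRAS1 it was 1.47 (adjusted p = 0.0282), for BRSK2 0.94 (adjusted p = 0.0376) and for FTSJ3 0.81 (adjusted p = 0.0311). Each of these fell with RPRD1B siRNA alone. On the RPRD2 background their log2 fold changes were 0.41, 0.06 and 0.14, with unadjusted edgeR p of 0.136, 0.739 and 0.358. JUN differed by -0.45 (adjusted p = 0.0466) and CMTM6 by -0.44 (adjusted p = 0.0377), and both rose with RPRD1B siRNA alone. These genes were named for a called change with RPRD1B siRNA alone, and that change is subtracted in the difference. The sign of each difference was therefore partly set by the choice of genes, and the control samples enter it as well.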

How the results depend on the processing

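Counts of called genes are given for RPRD1B_KD against control siRNA, then RPRD1B_RPRD2_KD against RPRD2_KD, then their difference, which were 75, 75 and 141. Without the replicate block they were 1, 0 and 0 (424 and 514 genes had an unadjusted p under 0.05 where 0 were called), with 16 samples and the block 2, 2 and 0, with 16 samples and no block 1, 0 and 0, and with the compared groups alone 211, 133 and 133 (block) or 1, 1 and 0 (no block). DESeq2 gave 32, 33 and 72, and 23 of its 32 were among the 75. It gave no adjusted p for many of the 75, GIPC1 and RPRD1B among them, so its first count does not cover the same genes. With limma voom with sample weights on 16 samples the counts were 11, 23 and 71. A log2 fold change of 1 or more left 8, 11 and 24. Leaving out 1 sample gave 3 to 36, 5 to 89 and 33 to 158 genes. RLE factors, both filters, robust estimation, the GC correction with the replicate block and the thinning to control depth, added after seeing the data, kept the first count between 66 and 80. The 75 genes kept their direction in 1268 of 1268 values. These settings reuse the samples in which the genes were chosen, so a kept direction is no independent support. Of the values, 557 were past the threshold, 661 were not and 50, from DESeq2, had no adjusted p. Signs reversed for RPRD2 (log2 fold change -0.027 with the GC correction, -0.011 thinned, -0.089 to 0.11 with 1 sample left out), CCND1 (0.047 with the GC correction, -0.086 to 0.022 with 1 sample left out) and MCM2 (-0.26 to 0.026 with 1 sample left out). Of 560 list medians under the alternatives, 111 moved by more than the SD of the 2 pairs. Depth limits low genes: of the 2937 with the lowest control level, 0 were called by edgeR, and 67 were lower and 132 higher at an unadjusted p under 0.05.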

Other observations

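The genes around RPRD1B on chromosome 20 were read as a check on the region. Of the 4 tested genes on each side, from BLCAP to ACTR5, none was called, and the unadjusted edgeR p-values in RPRD1B_KD against control siRNA were 0.129 or higher. The neighbour TTI1, which starts on the other strand next to RPRD1B, read 5.73 and 6.84 CPM against 7.14 and 6.55 CPM.

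In the group labelled RPRD1A_RPRD1A_KD, RPRD1B was at 14.4 and 8.10 CPM and GIPC1 at 65.4 and 69.8 CPM, near the levels in RPRD1B_KD, although that label names RPRD1A in both positions. In RPRD1A_KD they were at 27.5 and 23.4 CPM and 155 and 168 CPM, and in RPRD1A_RPRD1B_RPRD2_KD at 14.8 and 6.49 CPM and 75.5 and 54.1 CPM. All 13 mitochondrially encoded mRNAs are listed at 0 counts in the 4 samples, so they could not be compared.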
